A study of Mus musculus with 12 samples.

Results

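Slpi and 9 other genes for secreted or shed antimicrobial proteins were followed in the distal colon of 12 mice. The members were chosen by name, on values of these same mice: Slpi was selected on its difference between the genotypes, and Reg3b, Reg3g, Reg4, Lypd8, Ang4, Lyz1, Lyz2, Lcn2 and Camp were added as antimicrobial proteins of the gut with earlier results known. Genotype differences of the members are therefore described without a test. All 10 members were found among 35241 gene symbols. RNA was taken from full-thickness distal colon, so epithelium, immune cells, muscle and any attached fat were measured together. The 6 Spry2IEKO mice carried Vil1::Cre and homozygous floxed Spry2, and the 6 Spry2FF mice were littermates with the same floxed alleles and no Cre. Both litters, A and B, held 3 mice of each genotype. Cre driven by the villin promoter acts in the epithelium of the whole intestine, so the deletion was not limited to the colon. The labels give rearing to 6 weeks and collection of the colon at 8 weeks. Males numbered 3 of 6 in the Spry2FF group and 1 of 6 in the Spry2IEKO group.

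Antimicrobial proteins keep bacteria away from the intestinal surface, and each lineage of the mucosa contributes its own set. Goblet and Paneth cells release lectins, lysozyme and ribonucleases from granules, absorptive colonocytes shed surface proteins that bind bacteria, and phagocytes carry lysozyme and cathelicidin. Several of these genes are induced through IL-22, Toll-like receptor or NF-κB signaling, and Slpi, a protease inhibitor of mucosal secretions, is known both for blocking neutrophil elastase and for restraining NF-κB.

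Some members are close copies of each other, which bears on how reads were divided between them. Lyz1, the lysozyme best known from Paneth cells, and Lyz2, the lysozyme of macrophages, lie next to each other on chromosome 10 (GRCm38, minus strand). The second exon of each is entirely coding, and the pair is printed here to show how few bases separate them. It runs from 117291029 to 117291193 in Lyz1 and from 117280641 to 117280805 in Lyz2, and capitals mark the bases that differ.
Lyz1: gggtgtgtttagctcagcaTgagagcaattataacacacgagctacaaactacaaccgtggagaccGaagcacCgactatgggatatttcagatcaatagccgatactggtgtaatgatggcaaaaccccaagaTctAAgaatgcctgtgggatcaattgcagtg
Lyz2: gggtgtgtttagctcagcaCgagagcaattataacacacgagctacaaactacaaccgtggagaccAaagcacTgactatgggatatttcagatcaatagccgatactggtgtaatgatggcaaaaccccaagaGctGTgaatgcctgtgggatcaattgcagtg
The exons differed at 6 of 165 bases, with an identical run of 60 bases. Over all transcripts of GENCODE M21, 65.8% of the 31-base words of Lyz1 and 67.2% of those of Lyz2 occurred in no other gene, and all shared words were shared between these 2 genes. Reg3b and Reg3g, C-type lectins of the intestinal epithelium, were more distinct. The third exon of each is also entirely coding and lies on chromosome 6, from 78371799 to 78371917 on the plus strand for Reg3b and from 78467799 to 78467917 on the minus strand for Reg3g.
Reg3b: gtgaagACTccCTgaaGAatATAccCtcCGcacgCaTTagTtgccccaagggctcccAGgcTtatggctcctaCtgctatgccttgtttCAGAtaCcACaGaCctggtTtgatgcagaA
Reg3g: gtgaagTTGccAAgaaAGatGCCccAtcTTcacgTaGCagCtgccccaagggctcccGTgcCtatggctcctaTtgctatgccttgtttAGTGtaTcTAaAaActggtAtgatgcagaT
They differed at 32 of 119 bases, and 99.6% of the words of Reg3b and 99.8% of those of Reg3g were found in that gene alone. Ang4 shared 94 of its 679 words with other angiogenins, most of them with Ang5, which was listed at 0 in every mouse. Slpi, Reg4, Lypd8, Lcn2 and Camp shared none.

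The distal origin of the tissue could be read from its position genes, since the summed level of Hoxd13, Hoxd12, Hoxa13 and Hoxb13 was between 367 and 495 in all 12 mice. Levels are given as normalized TPM, an abundance corrected for transcript length and library size that the authors rescaled between mice, summed here over a gene's transcripts. Spry2, the targeted gene, was lower in 6 of 6 Spry2IEKO mice than in every Spry2FF mouse (18.5 to 22.5 against 22.8 to 32.3). Paneth cell defensins Defa24 and Defa22 were listed at 0 throughout. Of the neutrophil markers, Ly6g was between 234 and 416, whereas Cxcr2, Csf3r and Mmp8 stayed at or below 0.868. Markers of fat were high in 2 Spry2IEKO mice of litter A, replicates 4 and 5, with summed levels of 561 and 1092 against 20.7 to 109 in the other 10. Markers of B cells separated 5 mice, Spry2FF replicates 3 and 10 and Spry2IEKO replicates 4, 6 and 11, with sums of 84.8 to 346, from the other 7, with sums of 2.04 to 16.0. The sample names of litters A and B begin with different numbers whose meaning is not given, so anything these mark cannot be told apart from litter.

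Levels of the members spanned more than 4 orders of magnitude. Lypd8, a shed surface protein that binds bacterial flagella, had a mean of 10105, the 7th highest of 24755 genes above 0, and made up 0.67% to 1.28% of a mouse's total. Reg4, a lectin of deep crypt secretory cells, followed at 475 and Lyz2 at 167. Next came Slpi at 20.9, Lyz1 at 10.7, the ribonuclease Ang4 at 2.71 and the siderophore-binding Lcn2 at 1.14. Reg3g at 0.580, Reg3b at 0.302 and the cathelicidin Camp at 0.293 were lowest. Lypd8 lay above Reg4, and Lyz2 above Slpi, without overlap of their ranges. Reg4 exceeded Lyz2 within each of the 12 mice although their ranges overlapped. From Slpi downwards neighbours did not differ beyond their spread, as Slpi exceeded Lyz1 in 9 mice and Reg3b exceeded Camp in 2. Of the 10 members, 8 had a mean of at least 0.5 and entered the fits, while Reg3b and Camp did not.

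**Figure D1:**
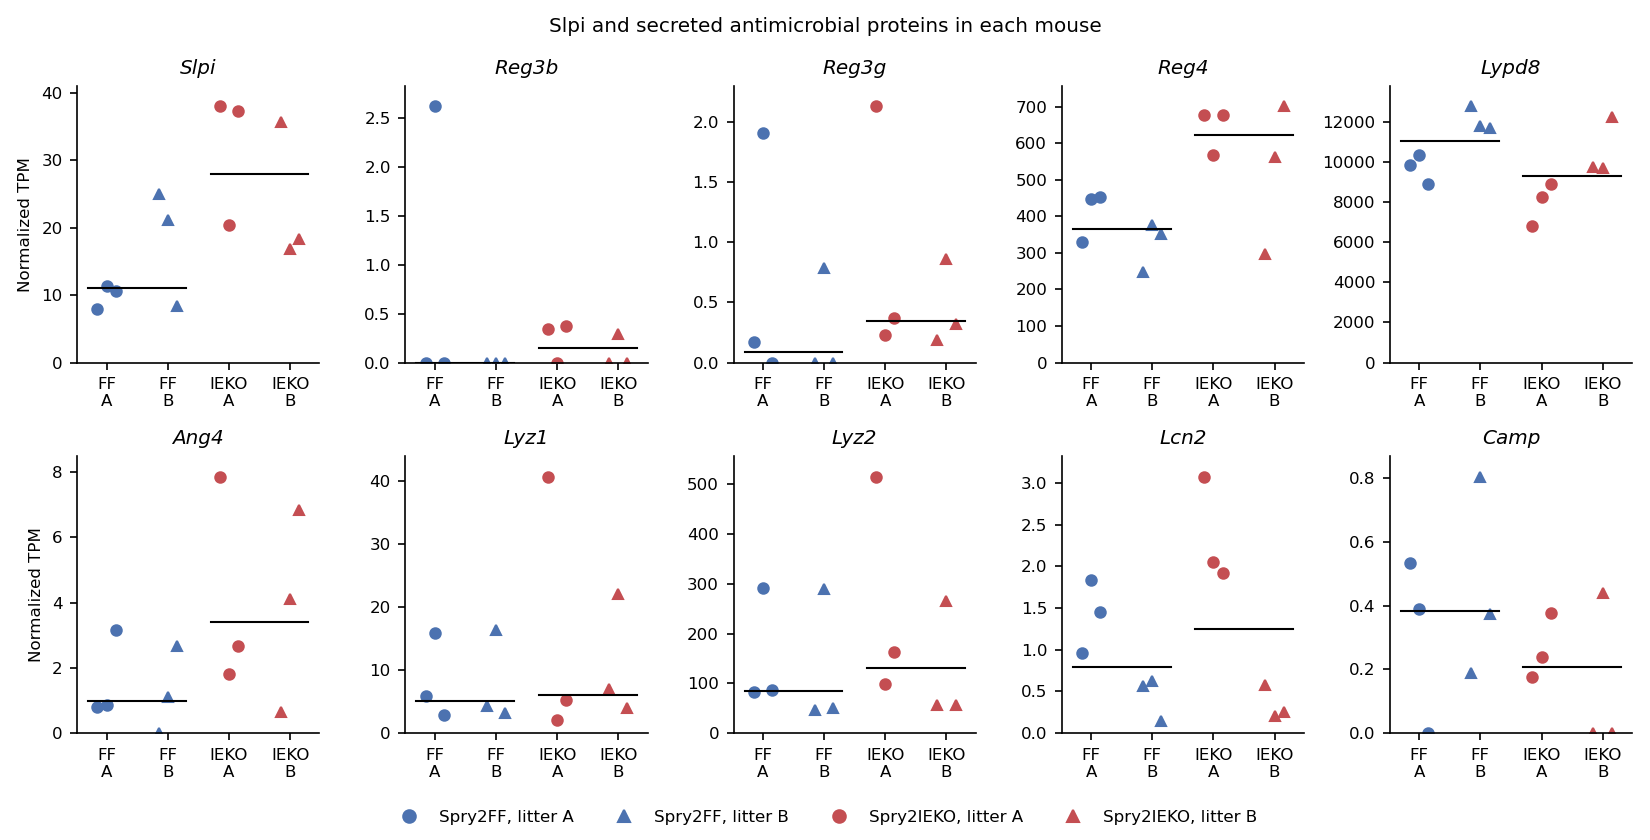
Normalized TPM of the 10 members in each of 12 mice, with one panel per gene and a linear axis from 0. Circles are litter A, triangles litter B, and black lines the median of 6 mice of a genotype. Slpi reached 38.0 in Spry2IEKO and 25.0 in Spry2FF mice, and Lcn2 was at or above 0.957 only in litter A.

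Slpi (ENSMUSG00000017002, chromosome 2, 164354070 to 164389095, minus strand) was 1.97 times as high in Spry2IEKO as in Spry2FF mice. Its level was 7.91, 11.4 and 10.6 in the Spry2FF mice of litter A (replicates 2, 3 and 7) and 25.0, 21.2 and 8.43 in those of litter B (9, 10 and 13). In Spry2IEKO mice it was 38.0, 20.4 and 37.3 in litter A (4, 5 and 6) and 35.7, 16.9 and 18.3 in litter B (8, 11 and 12). Of the Spry2IEKO mice, 3 of 6 lay above every Spry2FF mouse, and the others fell between the Spry2FF median and maximum. Means were 27.8 ± 10.2 (SD, n = 6) and 14.1 ± 7.20 (SD, n = 6). This was a log2 fold change of 1.01 with a standard error of 0.313, on the log2(normalized TPM + 0.5) scale used for all fold changes here. In bulk tissue, a difference in the number of cells that make a transcript and a difference in transcript per cell cannot be told apart. The summed level of 7 epithelial markers was 4404 to 5198 in Spry2FF and 3653 to 4498 in Spry2IEKO mice, and Slpi per 1000 of that sum was 2.97 ± 1.38 and 6.70 ± 2.58 (SD, n = 6 each).

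The difference in Slpi was larger among mice of litter A, but the gap between the litters did not pass its test. In litter A the 3 Spry2IEKO mice were all above the 3 Spry2FF mice, with a ratio of means of 3.21 and a log2 fold change of 1.59 (standard error 0.273). In litter B the genotypes overlapped, with a ratio of 1.30 and a log2 fold change of 0.42 (standard error 0.469). The effect in litter B minus that in litter A was -1.17 on the log2 scale, with a standard error of 0.576. By limma its unadjusted p was 0.0667 and its adjusted p 0.998. In simulated data this interaction fit recovered 27.5% of genes given a log2 change of 1. The failed test therefore cannot show that the litters are alike. In this interaction of genotype and litter 0 of 8 members passed the adjusted threshold, against 0.0126% of all genes tested. At an unadjusted p under 0.05 the limma fit had 0 of 8 members and 4.19% of all genes. The log2 fold change by genotype was 0.96 without both mice rich in fat transcripts, and 0.88 with the summed B cell level as a covariate. In the 8 females alone it was 0.96, with a standard error of 0.372.

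Of 3 Slpi transcripts, Slpi-201 had the highest mean in both genotypes. It and Slpi-202 share their later coding exons and are told apart by the first exon, so the coding part of exon 1 of Slpi-201 (chromosome 2, 164356188 to 164356272, GRCm38, minus strand) and the whole first exon of Slpi-202 (164356044 to 164356067) are shown, with the first codon in capitals.
Slpi-201: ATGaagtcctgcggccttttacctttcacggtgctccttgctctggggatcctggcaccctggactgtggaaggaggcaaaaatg
Slpi-202: ctgaggtcttgATGaagtttcaag
Slpi-201 was on average 68.6% of the gene's level, from 29.3% to 100% in single mice. Its mean was 8.73 ± 5.83 in Spry2FF and 21 ± 7.23 in Spry2IEKO mice (SD, n = 6 each), and 4 of 6 Spry2IEKO mice lay above every Spry2FF mouse. Slpi-202 had means of 4.66 ± 3.24 and 6.49 ± 4.58, and ranged from 0 in Spry2IEKO replicate 11 to 11.4 in replicate 6. Slpi-203, which begins at a far upstream exon, stayed at or below 1.05. Slpi-202 has 23 words of 31 bases of its own, or 5.02% of its words, against 116 for Slpi-201, so its share rests on few bases. On the log2 scale the difference was 1.38 for Slpi-201 and 0.11 for Slpi-202. The second value rested on Spry2IEKO replicate 11, listed at 0. Without that mouse, left out after its value was seen, the differences were 1.43 and 0.76.

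**Figure D2:**
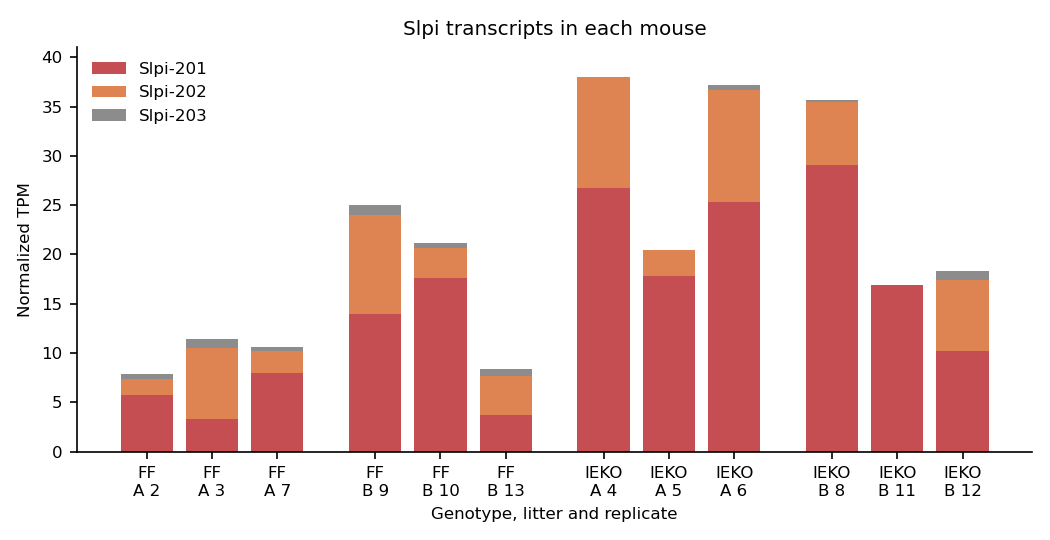
Normalized TPM of the 3 Slpi transcripts stacked for each of 12 mice, ordered by genotype, litter and replicate, with a linear axis from 0. Slpi-201 is the largest part in most mice and reaches 29.1 in a Spry2IEKO mouse, while Slpi-202 varies between 0 and 11.4.

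Reg4 (ENSMUSG00000027876, chromosome 3, 98222156 to 98236748, plus strand) was also higher in Spry2IEKO mice, and followed the goblet cell markers closely. Its level was 331, 449, 454, 249, 377 and 353 in Spry2FF replicates 2, 3, 7, 9, 10 and 13. In Spry2IEKO replicates 4, 5, 6, 8, 11 and 12 it was 677, 568, 678, 298, 562 and 701. All 5 female Spry2IEKO mice were above every Spry2FF mouse, and the only male, replicate 8, was below the Spry2FF median. The mean was 581 ± 151 against 369 ± 77.2 (SD, n = 6 each), a log2 fold change of 0.63 (standard error 0.206). Within litter A it was 0.65 and within litter B 0.61. The summed level of 8 goblet and deep crypt secretory markers, such as the mucin Muc2 and the disulfide isomerase Agr2, was 8020 to 12157 in Spry2FF and 9611 to 18563 in Spry2IEKO mice. All 8 of these markers had a positive log2 fold change by genotype and 0 of 8 passed the adjusted threshold. Across 12 mice Reg4 and this sum had a Pearson r of 0.97 and a Spearman rho of 0.94, with r = 0.92 within the 6 Spry2FF and 0.98 within the 6 Spry2IEKO mice and r = 0.97 without the 2 mice farthest from the median sum. This is a description of tissue pieces that share cell makeup within a library, and the goblet list had the highest r with Reg4 of the 12 marker lists. Reg4 per 1000 of goblet markers was 35.8 ± 3.26 in Spry2FF and 37.2 ± 3.52 in Spry2IEKO mice (SD, n = 6 each), and with the goblet level as a covariate its log2 fold change by genotype was -0.10.

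Ang4 (ENSMUSG00000060615, chromosome 14, 51763878 to 51773590, minus strand) showed a similar order of mice at a far lower level. It was 0.785, 0.855, 3.15, 0, 1.10 and 2.67 in Spry2FF replicates 2, 3, 7, 9, 10 and 13, and 7.85, 1.82, 2.68, 0.639, 4.10 and 6.83 in Spry2IEKO replicates 4, 5, 6, 8, 11 and 12. The genotypes overlapped, with a log2 fold change of 1.20 (standard error 0.545). With sex as a covariate this was 0.64, and in females alone 0.80. Its Pearson r with the goblet sum was 0.81 over 12 mice and 0.67 without the 2 mice farthest from the median sum. Within genotypes this r was 0.49 in 6 Spry2FF and 0.91 in 6 Spry2IEKO mice. The smooth muscle sum went with Ang4 about as closely in the opposite direction, with r = -0.79 and rho = -0.86 over 12 mice. Without the 2 mice farthest from the median of that sum, r was -0.85. With the goblet level as a covariate the log2 fold change of Ang4 by genotype was -0.26. All 4 males, at 0 to 0.855, were below all 8 females, at 1.10 to 7.85. Ang4 was the 1 of 8 members whose sexes did not overlap, against 1.10% of all genes tested. By limma with genotype and litter as covariates, the difference of males minus females was -1.67 for Ang4 (standard error 0.431, adjusted p = 0.296) and -0.54 for Reg4 (standard error 0.148, adjusted p = 0.322). Among the 8 members 0 passed the adjusted threshold by sex, against 0.101% of all genes. An unadjusted p under 0.05 was found for 2 of 8 members and for 8.41% of all genes. Sex was not balanced between the genotypes, and the goblet sum was 8020 to 12157 in the 4 males and 8949 to 18563 in the 8 females.

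Lyz2 and Lyz1 varied more between mice of one genotype than between the genotypes. Lyz2 (ENSMUSG00000069516) was 81.9, 291, 87.5, 45.6, 289 and 49.7 in Spry2FF replicates 2, 3, 7, 9, 10 and 13, and 515, 98.8, 163, 55.4, 266 and 57.0 in Spry2IEKO replicates 4, 5, 6, 8, 11 and 12. The 5 highest mice, at 163 to 515, were the 5 mice with the highest B cell sums, and the other 7 were between 45.6 and 98.8. Lyz1 (ENSMUSG00000069515) was 5.84, 15.9, 2.84, 4.25, 16.3 and 3.15 in the Spry2FF mice and 40.6, 2.03, 5.23, 6.92, 22.0 and 3.89 in the Spry2IEKO mice, in the same order. Of its 5 highest mice, 4 were of that set. Log2 fold changes by genotype were 0.39 (standard error 0.622) for Lyz2 and 0.35 (standard error 0.660) for Lyz1, each smaller than its standard error. With the B cell level as a covariate they were -0.24 and -0.28. Lyz2 was 8.00 to 48.8 times as high as Lyz1 in single mice, so the pair did not keep a fixed ratio. The macrophage sum, of 8 markers such as C1qa, was 38.3 to 132 and was highest in Spry2IEKO replicate 4, as was Lyz2. Whether the follicle or phagocyte content of the pieces accounts for these values was not tested.

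Reg3g and Reg3b were near the floor and were highest in the same mice. Reg3g (ENSMUSG00000030017) was 0.174, 1.91, 0, 0, 0.786 and 0 in Spry2FF replicates 2, 3, 7, 9, 10 and 13, and 2.13, 0.233, 0.369, 0.190, 0.861 and 0.318 in Spry2IEKO replicates 4, 5, 6, 8, 11 and 12. Its 5 highest mice were again the 5 with the highest B cell sums, at 0.369 to 2.13 against 0 to 0.318 in the other 7. Reg3b (ENSMUSG00000071356) was listed at 0 in 8 mice, and the remaining values were 2.62 in Spry2FF replicate 3 and 0.342, 0.377 and 0.287 in Spry2IEKO replicates 4, 6 and 11. All 4 of these mice belonged to the same set of 5. The genotypes overlapped for both lectins, and the log2 fold change of Reg3g was 0.38 (standard error 0.453), or -0.03 with the B cell level as a covariate. Since the B cell sums fall into separate sets of mice, no correlation over the 12 mice is given.

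**Figure D3:**
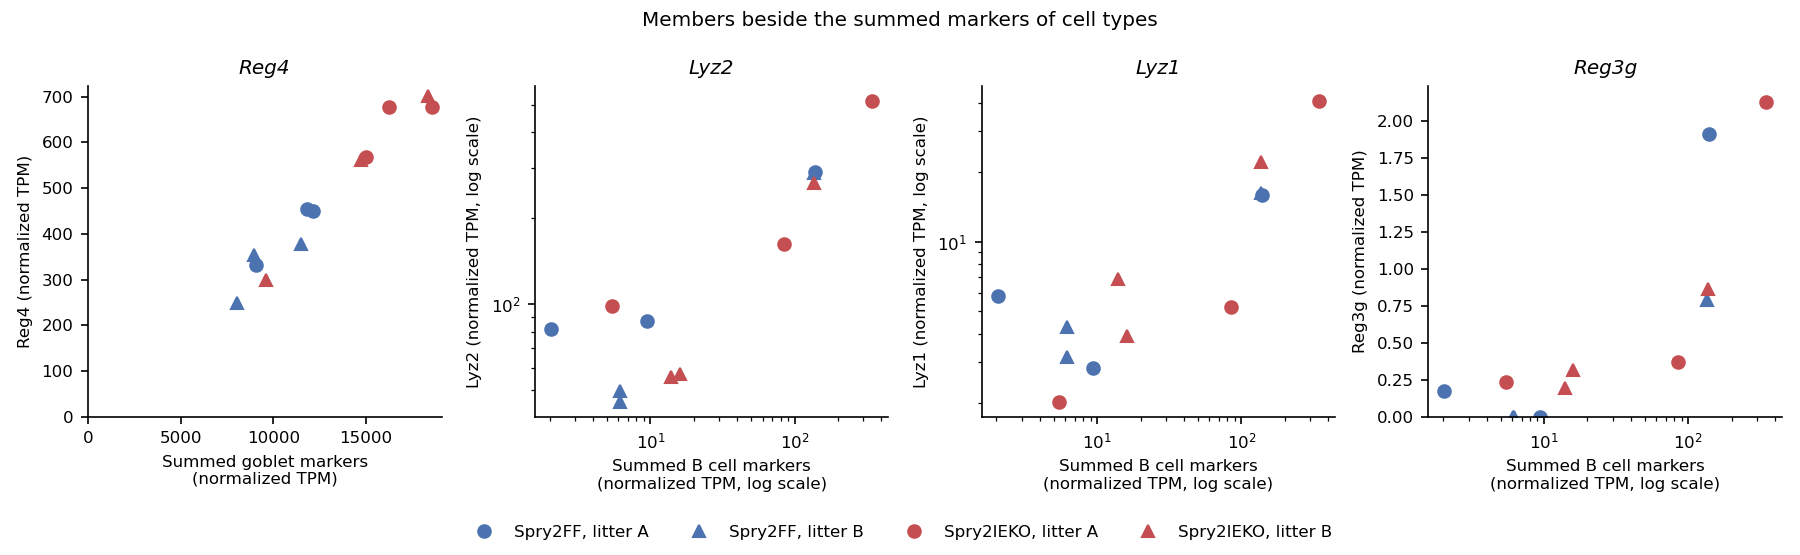
Reg4 against summed goblet markers on linear axes, and Lyz2, Lyz1 and Reg3g against summed B cell markers on a log axis, for 12 mice. Circles are litter A and triangles litter B. Reg4 is higher where the goblet sum is higher in both genotypes, and the 5 mice with B cell sums of 84.8 to 346 hold the 5 highest values of Lyz2 and of Reg3g.

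Lypd8 (ENSMUSG00000013643, chromosome 11, 58379043 to 58390728, plus strand) was the one abundant member with a lower mean in Spry2IEKO mice. It was 8937, 11050 and 12791 in Spry2FF mice (lowest, median and highest) and 6814, 9325 and 12282 in Spry2IEKO mice, and 3 of 6 Spry2IEKO mice were below every Spry2FF mouse. The log2 fold change was -0.24 (standard error 0.139). It was -0.33 to -0.16 with 1 mouse left out and -0.29 to -0.10 over 14 other alternatives. The values nearest to no change were -0.10 without both mice rich in fat transcripts and -0.12 with the goblet level as a covariate. Lypd8 per 1000 of epithelial markers was 2328 ± 224 in Spry2FF and 2225 ± 382 in Spry2IEKO mice (SD, n = 6 each). One of its 2 transcripts carried 93.8% to 96.1% of the level in every mouse. By litter it was 8860 ± 1254 in A and 11350 ± 1298 in B (SD, n = 6 each), and 4 of 6 mice of litter B were above every mouse of litter A. On the log2 scale, B exceeded A by 0.36, with a standard error of 0.0946 and an adjusted p = 0.0519 by limma, just outside the threshold. The adjusted p ranged from 0.0505 to 0.116 when 1 mouse was left out. Lypd8 passed in 2 of 13 other alternatives, with a pseudocount of 0.1 (adjusted p = 0.0474) and with a mean of at least 1 required (adjusted p = 0.0415). The range of adjusted p over those 13 was 0.0415 to 0.451. The difference itself ran from 0.20 to 0.41 over them, and was lowest by quantile normalization (adjusted p = 0.285). Lypd8 followed the summed level of 7 absorptive colonocyte markers, such as the carbonic anhydrase Car4, with a Pearson r of 0.86 and a Spearman rho of 0.87 over 12 mice, and r = 0.76 without the 2 mice farthest from the median sum. Within genotypes r was 0.66 in 6 Spry2FF and 0.89 in 6 Spry2IEKO mice. The neutrophil sum, nearly all of it Ly6g, went with Lypd8 about as closely. Its r and rho were both 0.83 over 12 mice, and r was 0.80 without the 2 mice farthest from its median. The epithelial sum had r = 0.75 and the mesothelial sum r = -0.78, so the link was not particular to absorptive markers.

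Lcn2 (ENSMUSG00000026822, chromosome 2, 32384633 to 32388252, minus strand), which withholds iron from bacteria, was the member that differed between the litters. It was 0.957, 1.83 and 1.45 in the Spry2FF and 3.07, 2.05 and 1.92 in the Spry2IEKO mice of litter A. In litter B it was 0.568, 0.627 and 0.147 in Spry2FF and 0.570, 0.209 and 0.254 in Spry2IEKO mice. All 6 mice of litter A were above all 6 of litter B, as was 1 of 8 members against 3.72% of all genes whose litters did not overlap in either direction. Means were 1.88 ± 0.707 and 0.396 ± 0.215 (SD, n = 6 each). The log2 difference of B minus A was -1.39, with a standard error of 0.236 and an adjusted p = 0.0144 in the limma fit with genotype as covariate. Of the members 1 of 8 passed this threshold, against 4.38% of all genes tested, so the share is not a result about the members as a group. Lcn2 also passed with each of the 12 mice left out in turn (adjusted p = 0.0108 to 0.0400). Without both mice rich in fat transcripts the difference was -1.20 with adjusted p = 0.0908, a fit in which 1 Spry2IEKO mouse of litter A remained and was assumed to vary like the others. Macrophage sums were 69.5 to 132 in litter A and 38.3 to 100 in litter B, and the part of macrophages or fat in the Lcn2 difference was not tested. By genotype Lcn2 had a log2 fold change of 0.22 with a standard error of 0.448. Within litter A this was 0.58, and within litter B it was -0.15. The level of Lcn2 was low and was a sum over 5 transcripts found above 0. The largest made up 55.9% of it on average, from 0% to 100% in single mice, and was listed at 0 in 3 mice. Each of the others was listed at 0 in at least 8 mice, so the litter difference holds for the summed level only.

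Apart from Lcn2 and Lypd8, no member that entered the limma fit was past or near the threshold by litter. The log2 difference of B minus A was 0.13 for Slpi (standard error 0.324, adjusted p = 0.844 by limma) and -0.36 for Reg4 (standard error 0.187, adjusted p = 0.282). It was -0.83 for Lyz2, -0.41 for Reg3g, -0.33 for Ang4 and 0.01 for Lyz1, with adjusted p between 0.455 and 0.996. Camp (ENSMUSG00000038357), the cathelicidin precursor of neutrophils, was at or below 0.804 in every mouse and listed at 0 in 3. Its values were 0.534, 0.390, 0, 0.189, 0.804 and 0.374 in Spry2FF replicates 2, 3, 7, 9, 10 and 13, and 0.175, 0.238, 0.377, 0, 0.440 and 0 in Spry2IEKO replicates 4, 5, 6, 8, 11 and 12. No member's genotypes were free of overlap, against 0.403% of all genes, a count that is only descriptive since this contrast served to choose Slpi.

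**Figure D4:**
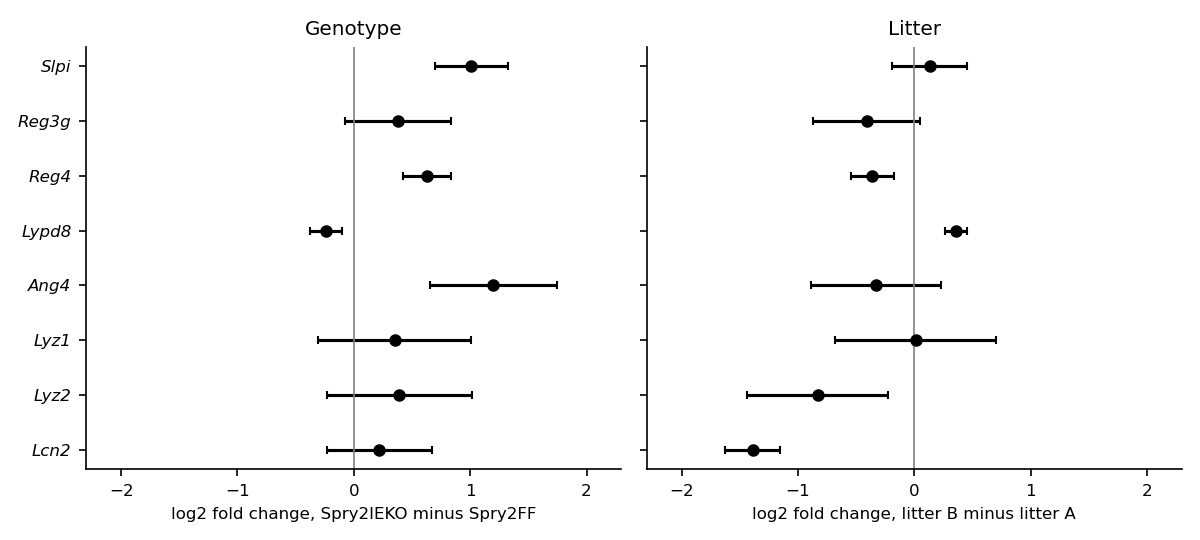
Log2 fold changes of the 8 members that entered the fits, for Spry2IEKO minus Spry2FF without covariate and for litter B minus litter A with genotype as covariate. Bars are standard errors over 12 mice. Slpi stands at 1.01 by genotype and 0.13 by litter, and Lcn2 at 0.22 and -1.39.

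The wider antimicrobial repertoire was read from 8 lists of 112 genes, of which 56 had a mean of at least 0.5 and 24 were listed at 0 in every mouse. By genotype 0 of 56 passed the adjusted threshold of limma, against 0.0315% of all genes. An unadjusted p under 0.05 was found for 4 of 56, or 7.14%, close to the 6.18% of all genes. These 4 were Zg16, Retnlb, Pla2g2a and Lypd6b, each with a positive fold change. The median log2 fold change of the 56 was -0.02, beside 0.01 over all genes. By litter 0 of 56 passed and 15, or 26.8%, had an unadjusted p under 0.05, beside 21.9% of all genes, with a median of -0.09 beside -0.05 over all genes. By sex 0 of 56 passed and 11, or 19.6%, had an unadjusted p under 0.05, beside 8.41% of all genes.

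Among lectins, Zg16, a goblet cell protein that aggregates Gram-positive bacteria, was 3230 ± 703 in Spry2FF and 5379 ± 1246 in Spry2IEKO mice (SD, n = 6 each), with a log2 fold change of 0.73 and adjusted p = 0.446 by limma. It is also one of the goblet markers used beside Reg4. The galectins Lgals4, at a mean of 2995, and Lgals3, at 1325, had log2 fold changes of -0.10 and -0.12. Of the 4 tested relatives of Slpi with a WAP domain, 1 had a positive fold change. Wfdc2, the most abundant at 568, was 568 ± 64.0 in Spry2FF and 567 ± 86.9 in Spry2IEKO mice (SD, n = 6 each). Its log2 fold change was -0.01 with a standard error of 0.106, beside the 1.01 of Slpi, and the difference between these genes was not tested. Wfdc18 had a value of 0.43 (adjusted p = 0.859), and Wfdc1 and Wfdc3 had -0.13 and -0.14.

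Retnlb, a goblet cell protein that damages Gram-positive bacteria, had the largest fold change by genotype of the listed genes. Its level was 0 to 0.907 in Spry2FF mice and 0.219 to 15.3 in Spry2IEKO mice, and 5 of 6 Spry2IEKO mice were above every Spry2FF mouse. This was a log2 fold change of 2.40, with a standard error of 0.616 and an adjusted p = 0.478 in the limma fit. As with Reg4, the mouse that overlapped was the male Spry2IEKO replicate 8. Its relative Retn, a product of fat, was 0.333 to 3.54 in Spry2FF mice and up to 56.1 in Spry2IEKO mice, where fat markers were also highest. The peptidoglycan binder Pglyrp1 was 267 ± 32.2 and 238 ± 31.8 (SD, n = 6 each), with a log2 fold change of -0.17 (adjusted p = 0.837). Sprr2a2, at a mean of 9974, and Sprr2a3, at 772, both had -0.15, and these near-identical copies can share reads, so their split is uncertain.

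Of ribonucleases and phospholipases, 6 of 7 had a positive fold change by genotype and 0 of 7 passed. Pla2g2a, a phospholipase that lyses Gram-positive bacteria, was 2.78 ± 1.11 in Spry2FF and 6.74 ± 4.10 in Spry2IEKO mice (SD, n = 6 each), with a log2 value of 0.99, a standard error of 0.376 and an adjusted p = 0.752. Pla2g10 at 124, Rnase4 at 82.3 and Pla2g5 at 31 were the most abundant, with 0.02, 0.00 and 0.23. Rnase6, a ribonuclease of phagocytes, had 0.55 and shared 4 of its 5 highest mice with the B cell sum. Of 16 defensins, 12 were listed at 0 in every mouse and only Defb45 was tested, at 55.1 ± 17.7 and 48.2 ± 16.6 (SD, n = 6 each), with adjusted p = 0.937.

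Of 15 granule and metal-binding proteins 3 were tested. Hamp2, Lpo and Ltf had means of 5.10, 4.52 and 0.809, and their log2 fold changes by genotype were 0.16, 0.14 and -0.30. In the family of Lypd8, Ly6e was the most abundant at a mean of 509, with 0.13, and Lynx1 had -0.06. Lypd6b had 0.60, with a standard error of 0.256 and an adjusted p = 0.762, and Ly6d, at 10.1 to 35.4 in the 5 mice with high B cell sums and 0 to 1.34 in the other 7, had 0.93.

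Among 27 genes of inducing pathways, 22 were tested and 9 had a positive fold change by genotype. Il22 itself was listed at 0 in all mice, a listing that does not show its absence. Il22ra2, the decoy receptor for IL-22, was 2.96 to 17.5 in the 5 mice with high B cell sums and 0.0454 to 1.96 in the other 7, and had a log2 fold change of 0.56 (adjusted p = 0.941). Saa1, an acute phase protein induced in the epithelium, had a mean of 1801 and a value of -0.03, Il18 had -0.04 and Il10rb had -0.02. Tnf, at a mean of 0.862, had 0.70 (adjusted p = 0.826). Every one of these adjusted p-values is from the limma fit by genotype.

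The genes that deviated most like each member were sought among 15872 others, after the mean of each genotype in each litter had been taken off. Those for Slpi were Ivd (r = 0.95), Gm15427 (0.92), Zc3h6, Map3k3 and Gm18030 (0.91 each). Those for Reg4 were Ccl6 (0.97), Eef1g (0.97) and Tspan13 (0.95), and those for Ang4 were Oaz3, Rmnd1 and Ighv1-4 (0.98 to 0.95). Lyz2 was most like Arhgdib, Tnfsf11 and Laptm5 (0.99 or higher), Lyz1 like Gpsm3 (0.98), Cldn10 and Sp110, and Reg3g like Rhoh (0.99), Nfatc1 and Gimap7 (0.98 each). Lypd8 was most like Tmem141 (0.98), Gm45038 and Snrnp35, and Lcn2 like Nsmce1 and Atp5g2 (0.94 each) and Prdm1 (0.93). These are the highest of many values over 12 mice, after those means were taken off, and are given as a description. Without that step r was 0.34 for Slpi with Ivd and 0.57 to 0.73 for Slpi with its other named genes. It was 0.58 for Reg4 with Eef1g, while Lyz2 with Laptm5 kept 0.99.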

How the data were processed

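RNA of full-thickness distal colon of 12 mice was measured, and groups, litters and sexes were taken from the labels. The submitters' processing notes name CASAVA, kallisto and sleuth with build mm10, without versions. Deposited values are a signal per transcript, TPM that the authors rescaled between mice, with totals from 918816 to 1069158. Read depth is unknown from these values, and 0 is reported as listed at 0. The authors' own test columns, with p-values and model estimates, were not used. The labels describe paired-end reads.

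Of 113974 entries, 781 repeats were dropped, and 113193 transcripts were summed to 35241 symbols. The 15880 genes whose mean reached 0.5 entered limma 3.58.1 under R 4.3.3, by lmFit and eBayes with trend and two-sided Benjamini-Hochberg adjusted p-values, on log2(value + 0.5), which understates changes of low genes. The script was tested on simulated data. Replicates are separate mice. Genotype was compared without covariate, litter with genotype, and sex with genotype and litter. The design had assumed TPM, and the same fits were kept for the rescaled signal.

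The members and lists were chosen with earlier results of these data known. Named genes are the members, and of each list those past the threshold, the 3 highest means and the 2 largest fold changes by genotype, and for likeness the 5 or 3 highest r. Rnase6, Il22ra2 and Ly6d in the B cell comparison, and marker genes, were named after their values were seen. Summed marker lists covered epithelium, absorptive, goblet, Paneth, mesothelial, squamous, macrophage, neutrophil, B cell, fat, smooth muscle and positional genes. Mesothelial sums were 1.77 to 12.4, squamous 1.16 to 4.95, Paneth and small intestinal 13.7 to 23.8 and smooth muscle 3226 to 7887. Positions, exons and 31-base words are from GENCODE M21 on GRCm38, the build called mm10. Alternatives were the pseudocount (0.1 or 1), the filter, rescaling to a total of 1000000, quantile normalization, covariates, subsets and leaving out each mouse. B cell and goblet covariates and the fit without both mice rich in fat were added after seeing the data. Python 3.11.15, NumPy 2.4.6, pandas 2.3.3 and matplotlib 3.10.9 were used.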

Additional observations from a re-analysis of the deposited data

Results flagged for a closer look

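Of 20 groups of 6 mice looked at, the 10 members in each genotype, 3 held 1 mouse set apart from the others by more than 0.625 of the group's range. That cut-off is meant to set apart about 1 in 20 by chance, a rate that need not hold here. The groups share mice, and for Reg3b 5 of 6 Spry2FF mice were listed at 0. The count of 3 is a description and does not show an excess over chance. Reg4 was 298 in Spry2IEKO replicate 8, the male of its group, against 562 to 701 in the other 5 mice. Reg3b was 2.62 in Spry2FF replicate 3, where the other 5 mice were listed at 0. Reg3g was 2.13 in Spry2IEKO replicate 4, against 0.190 to 0.861 in the others.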

How the results depend on the processing

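The log2 fold change of Slpi by genotype kept its sign in all 26 alternatives, from 0.88 to 1.20 with 1 mouse left out and from 0.42 (litter B alone) to 1.59 (litter A alone) otherwise. Slpi was selected on this difference in these same mice, so the kept sign is not independent support for it. Lcn2 by litter was -1.51 to -1.27 with 1 mouse left out and -2.05 and -1.02 with pseudocounts of 0.1 and 1, and lost its call in Spry2FF alone (-1.03), in Spry2IEKO alone (-1.76) and without both mice rich in fat (-1.20). With the goblet level as covariate the genotype value was -0.50 for Reg3g, -0.10 for Reg4, -0.26 for Ang4, -0.35 for Lyz1, -1.04 for Lyz2 and -0.46 for Lcn2, and Ang4 by litter was 0.35. Reg3g by genotype was 1.06 with a pseudocount of 0.1, against 0.38, and Ang4 by genotype was 0.64 with sex as covariate, against 1.20. With the B cell level as covariate the genotype value was -0.03 for Reg3g, -0.28 for Lyz1 and -0.24 for Lyz2. Lcn2 by genotype was -0.15 in litter B alone and -0.28 without both mice rich in fat. Values by litter near 0 also turned, Slpi to -0.45 in Spry2IEKO alone, and Lyz1 to -0.01 (pseudocount 1), -0.06 (rescaled) and -0.08 (Spry2FF alone). With 1 mouse left out the ranges by litter were -0.06 to 0.28 for Slpi, -0.60 to -0.00 for Ang4 and -0.39 to 0.51 for Lyz1. By genotype they were -0.10 to 0.71 for Lyz1, 0.01 to 0.68 for Lyz2, 0.12 to 0.70 for Reg3g and -0.03 to 0.44 for Lcn2. Lyz2 by genotype was 0.04 without both mice rich in fat. The 696 genes called by litter (24.6% higher in B) became 1456 when rescaled to equal totals (7.21% higher), 477 by quantile normalization (43.8% higher), 422 with no filter, 2 in Spry2FF alone, 1 in Spry2IEKO alone and 18 without both mice rich in fat, and 178 (without Spry2IEKO replicate 5) to 957 (without Spry2IEKO replicate 8) with 1 mouse left out. The 5 genes called by genotype became 1 with no filter, with sex, B cell or goblet level as covariate and in either litter alone, 2 by quantile normalization and in females alone, 0 without both mice rich in fat, and 1 to 11 with 1 mouse left out. By interaction 2 to 5 and by sex 10 to 20 genes were called with 1 mouse left out, against 2 and 16. Subsets hold fewer mice, and the cause of the other changes was not tested. No paired analysis was possible because the replicate numbers pair no mice. With litter as covariate instead, 6 genes were called by genotype (5 higher, 1 lower) and Slpi stayed at 1.01. Values carry no read counts, so how far depth limits the low levels of Reg3b, Reg3g, Camp and Lcn2 is unknown.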
